A study of Homo sapiens with 18 samples.

Results

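C4-2B prostate cancer cells kept for 7 days in VIC-1911, an inhibitor of the mitotic kinase AURKA, were compared with C4-2B cells kept for 7 days in DMSO vehicle. The comparison rests on 6 of the 18 RNA-seq libraries of the study, 3 labelled vehicle and 3 labelled VIC-1911, chosen by their treatment and time labels. The genes are the 13795 of 21276 in the count table that had at least 10 counts in at least 3 of these 6 libraries. C4-2B is a human castration-resistant prostate cancer line, and all 6 libraries came from this line with the genotype given as WT, so the comparison describes a single cell line. VIC-1911 was given at 0.1 μM, and polyadenylated RNA was sequenced. The other libraries, which were treated for 2 days, or for 7 days with olaparib or with both drugs, are used only where they are named. No source says whether the 3 libraries of a group came from separate cultures, so the p-values measure the spread between these libraries.

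AURKA is a kinase that is made and degraded anew in each cell cycle. It is activated at the spindle by TPX2 and through BORA helps to activate PLK1, and cells need it to mature their centrosomes and to build a spindle. Cells that fail in mitosis can activate p53, which induces the CDK inhibitor p21 (CDKN1A), and p21 in turn keeps RB family proteins and the DREAM complex in the state that represses cell cycle genes. ATF4 is the transcription factor of the integrated stress response and switches on genes for the synthesis and the uptake of amino acids.

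The vehicle libraries held between 6911220 and 17538796 counts on genes, with a median of 15091854. The range in VIC-1911 was 10009912 to 15935359, with a median of 12704596. Along the first principal component, which took up 75.2% of the variance, the 2 treatments lay apart, and the biological coefficient of variation was 4.25%. The cells expressed the luminal prostate markers: KLK3, which encodes PSA, stood at 2668, 2697 and 2678 FPKM in vehicle libraries 1, 2 and 3, and the summed level of 11 luminal markers was between 4654 and 4697 FPKM in vehicle and between 3339 and 3523 FPKM in VIC-1911. FPKM is the number of fragments per kilobase of gene, scaled by the size of the library. The summed levels of the 2 basal, 4 stromal and 2 endothelial markers in the table were each at most 1.89 FPKM in any library, and those of 7 neuroendocrine and 4 immune markers at most 4.87 and 7.98 FPKM. These are bulk RNA samples, in which fewer cells of a kind and less RNA per cell cannot be told apart.

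A gene was called when its adjusted p-value was under 0.05 in edgeR's quasi-likelihood test with Benjamini-Hochberg adjustment over all genes tested and its fold change was at least 2. By this rule 419 genes (3.04%) were higher in VIC-1911 and 461 (3.34%) were lower, 6.38% in all. Without the limit on the fold change, 3690 genes (26.7%) passed as higher and 3817 (27.7%) as lower, 54.4% in all, so passing alone was the state of most genes. The median log2 fold change over all genes tested was −0.02. FPKM values of vehicle and VIC-1911 did not overlap for 60.6% of genes. The log2 fold changes below are VIC-1911 over vehicle, many with their standard error (SE), and levels are FPKM in libraries 1, 2 and 3 of each group. Rose and fell mean higher or lower than in vehicle of 7 days, not a change over time.

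**Figure D1:**
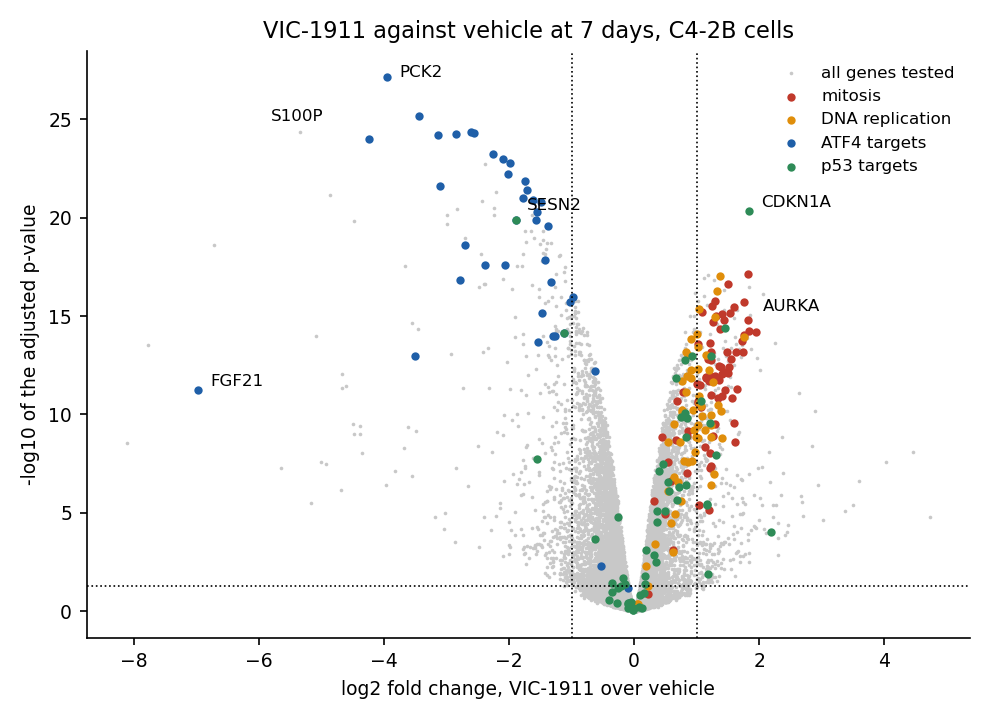
Log2 fold change of each tested gene, VIC-1911 over vehicle at 7 days, against −log10 of its adjusted p-value (edgeR). Dotted lines mark a 2-fold change and an adjusted p of 0.05. Genes of mitosis (red) and DNA replication (orange) lie on the right, ATF4 targets (blue) on the left, and p53 targets (green) on both sides.

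Genes of the Aurora kinases and their partners were higher in cells under the AURKA inhibitor than in vehicle of 7 days. AURKA itself (chromosome 20, 56369390 to 56392215 in GRCh38.p14) stood at 8.01, 5.45 and 5.61 FPKM in vehicle and at 23.5, 23.0 and 25.9 FPKM in VIC-1911. The groups did not overlap, and the log2 fold change was 1.86 (SE 0.09), a 3.62-fold higher level (adjusted p = 8.8e-16, edgeR's quasi-likelihood test). AURKB, the kinase of the chromosomal passenger complex, rose from 10.9, 8.03 and 8.20 FPKM to 21.3, 19.9 and 23.3 FPKM, a log2 change of 1.18 (SE 0.10). AURKC, a paralog expressed mainly in germ cells, stayed under 0.61 FPKM in all 6 libraries, with overlapping groups. PLK1, the polo-like kinase downstream of AURKA, rose from 19.3, 12.7 and 10.9 FPKM to 46.5, 51.5 and 53.7 FPKM, a log2 change of 1.73 (SE 0.10). For each of these kinases the first vehicle library was the highest of the vehicle libraries.

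Of the 19 genes tested in this list, 15 passed as higher, 12 of them called, and 2 passed as lower, with a median log2 fold change of 1.08. Among the activators and anchors, TPX2 rose by 1.43 (SE 0.08) on the log2 scale, from 15.1, 10.7 and 9.69 FPKM to 32.2, 33.7 and 34.9 FPKM. The survivin gene BIRC5 rose by 1.64, CDCA8 by 1.34 and INCENP by 1.08, all members of the passenger complex with AURKB. Without vehicle library 2 the change of INCENP was 1.00 and that of the phosphatase gene CDC25B, 1.05 in the full fit, was 0.91, which put both under the 2-fold limit, as was KIF2C (1.08 in the full fit) without vehicle library 3, at 1.00. Among the substrates and spindle proteins, TACC3 rose by 1.44 (SE 0.07), the kinesin KIF11 by 1.28, GTSE1 by 1.55, and CKAP5 by 0.43. BORA, a cofactor of AURKA, was at most 0.74 FPKM in any library and rose by 0.95 (SE 0.28), and CEP192, a scaffold of AURKA at the centrosome, rose by 0.27. AJUBA, a LIM protein that binds AURKA, went the other way, from 4.58, 4.15 and 4.43 FPKM to 2.37, 2.04 and 2.48 FPKM, a log2 change of −0.98 (SE 0.09) with no overlap. LATS2 passed with a log2 change of −0.19 and overlapping groups but not without vehicle library 2 (−0.10), VIC-1911 library 2 (−0.13) or VIC-1911 library 3 (−0.20), and NEDD9 did not pass (0.19, SE 0.16). TACC3, PLK1, BORA and CKAP5 overlap other genes, and the counting may have shared reads between such genes.

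The higher level of mitotic genes was general, measured against vehicle of 7 days, the group that lay lowest in them. Of 74 genes of mitosis, 73 passed as higher and none as lower, 61 were called, and the median log2 fold change was 1.26. The 1 that did not pass was SKA1, of the kinetochore, at a change of 0.23. The 16 regulators of mitosis had a median of 1.47, the 25 checkpoint and kinetochore genes 1.23, the 23 motor, spindle and cytokinesis genes 1.25, and the 10 chromosome genes 1.16.

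CDK1, the kinase that drives entry into mitosis, stood at 12.7, 9.20 and 11.4 FPKM in vehicle and 38.9, 38.9 and 42.5 FPKM in VIC-1911, a log2 change of 1.82 (SE 0.07). The lowest VIC-1911 library was well above the highest vehicle library. The checkpoint kinase gene BUB1B rose by 1.76 (SE 0.08), from 5.77, 4.32 and 4.73 FPKM to 15.7, 18.1 and 18.1 FPKM. The anillin gene ANLN, needed for cytokinesis, rose by 1.5, the topoisomerase gene TOP2A by 1.29, the nuclear lamin gene LMNB1 by 1.25, and MKI67, the gene of the proliferation marker Ki-67, by 1.27. Ki-67 mRNA stood at 6.43, 5.62 and 4.94 FPKM in vehicle and 15.2, 14.7 and 13.1 FPKM in VIC-1911.

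Vehicle library 1 stood apart in these genes. Mitotic genes summed to 2883 CPM (counts scaled to a common library total) there and to 2403 and 2373 CPM in the other vehicle libraries, against 5740 to 5895 CPM in VIC-1911. Without that library the counts were 73 of 74 passed and 63 called, so the result was as large without it. At 2 days mitotic genes summed to 7280 to 7346 CPM in vehicle and to 6517 to 6541 CPM in VIC-1911, above both groups of 7 days.

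DNA replication genes were also higher than in vehicle of 7 days, the group that lay lowest in them. They summed to 1990 to 2222 CPM there and to 3874 to 3976 CPM in VIC-1911 at 7 days. At 2 days the sums were 4806 to 4897 CPM in vehicle and 4008 to 4046 CPM in VIC-1911. Of 59 genes, 56 passed as higher and none as lower, 25 were called, and the median log2 fold change was 0.94. The 17 genes of origins and the replicative helicase all passed as higher, with a median of 1.02. MCM2, a helicase subunit, stood at 20.9, 18.6 and 20.1 FPKM in vehicle and at 42.5, 42.3 and 42.6 FPKM in VIC-1911, a change of 1.05 (SE 0.05), and the 3 libraries within a group were close together. MCM4 rose by 1.33 and MCM10, which loads onto the helicase at origins, by 1.76. RRM2, a subunit of the enzyme that makes deoxynucleotides, rose by 1.37 (SE 0.05), from 12.1, 11.1 and 11.1 FPKM to 31.8, 29.7 and 30.7 FPKM. FEN1, which trims the flaps of lagging strand fragments, rose by 1.3. The 3 genes that did not pass were POLD3, DUT and USP1.

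**Figure D2:**
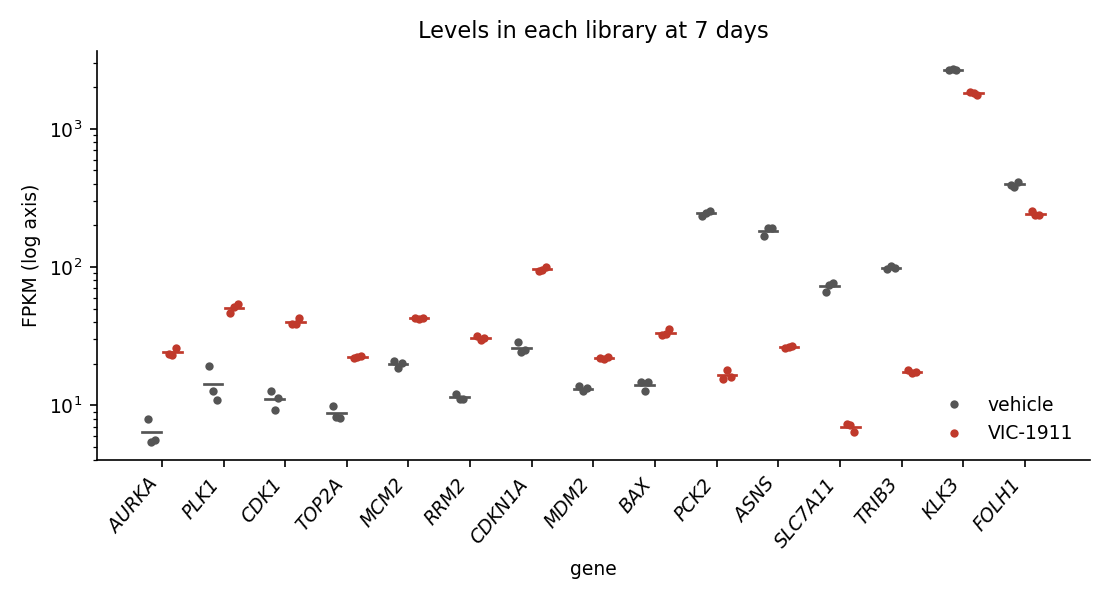
FPKM of 15 genes in each of the 6 libraries, on a log axis, with vehicle in grey and VIC-1911 in red. Points are libraries 1, 2 and 3, from left to right, and bars are group means. AURKA to BAX lie higher in VIC-1911 and PCK2 to FOLH1 lower.

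Cyclin and CDK genes were higher, and so was the gene of the CDK inhibitor p21. CDKN1A (chromosome 6, 36676463 to 36687332) stood at 28.5, 24.3 and 25.1 FPKM in vehicle and 93.0, 95.5 and 99.8 FPKM in VIC-1911, a log2 fold change of 1.83 (SE 0.05) and a 3.57-fold higher level (adjusted p = 4.4e-21, edgeR's quasi-likelihood test). No vehicle library came near a VIC-1911 library. Of 23 genes tested in this list, 19 passed as higher, 2 as lower and 7 were called higher. All 10 cyclins and CDKs passed as higher, with a median of 0.90, and of the 5 RB and E2F genes 4 passed as higher and 1, RBL2, as lower (−0.56, SE 0.05), with a median of 0.28. CCNA2, the cyclin of S phase and G2, rose by 1.63, and CCNB1, the cyclin of mitotic entry, rose by 1.46. E2F1, a transcription factor of S phase genes, had a change of 1.04, and of 0.97 without vehicle library 2 and 0.96 without VIC-1911 library 3. CCNA2, CCNB1, CDK1 and E2F1 are also members of the mitosis or the replication list.

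Of the 8 genes in the CDK inhibitor group, p21 and CDKN3 were called. CDKN3, a phosphatase of CDKs whose own expression peaks in mitosis, rose by 1.22 (SE 0.10). CDKN2C (p18) rose by 0.53 and CDKN2A (p16) by 0.33, and CDKN1B (p27) fell by 0.22 on the log2 scale, from 28.1, 28.6 and 27.1 FPKM to 23.7, 26.6 and 24.7 FPKM. CDKN2D (p19) passed at 0.33 but did not pass without vehicle library 3 (0.27) or VIC-1911 library 3 (0.33). CDKN1C (−0.42, SE 0.19) did not pass, and did without vehicle library 2 (−0.54). CDKN2B (0.18, SE 0.30) did not pass and had overlapping groups.

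The targets of p53 did not move as a block. Of 57 tested genes, 32 passed as higher and 8 as lower, 10 were called higher and 3 lower, and the median log2 fold change was 0.32. Over all genes tested, 26.7% passed as higher and 27.7% as lower, and 3.04% were called higher and 3.34% lower. The share of p53 targets that passed as lower was thus below that of all genes. Of the 9 cell cycle arrest genes, 6 passed as higher and none as lower, with a median of 0.75. The arrest gene BTG2 rose by 1.45 (SE 0.08), from 7.79, 6.52 and 6.31 FPKM to 17.9, 20.2 and 20.6 FPKM. All 5 feedback genes passed as higher. MDM2, the ligase that targets p53 for degradation, rose by 0.68 (SE 0.05), from 13.8, 12.6 and 13.2 FPKM to 21.9, 21.5 and 22.2 FPKM.

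The death genes among the p53 targets include genes called in both directions. BAX, which permeabilizes mitochondria, rose by 1.22 (SE 0.07), from 14.6, 12.7 and 14.9 FPKM to 32, 32.8 and 35.7 FPKM. PMAIP1, the BH3-only gene also known as NOXA, fell by 1.55 on the log2 scale (SE 0.17), from 5.13, 3.94 and 5.80 FPKM to 2.33, 1.48 and 1.45 FPKM. Neither pair of groups overlapped, so the 2 genes moved in opposite directions. Of 15 tested death genes, 6 passed as higher and 3 as lower, with a median of −0.09. With 26.7% of all genes tested passing as higher and 27.7% as lower, these counts say little about the death genes as a group.

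The p53 targets that fell include genes that ATF4 also drives. SESN2, a sestrin that holds back mTORC1, fell by 1.89 (SE 0.06), from 32.6, 34.1 and 31.5 FPKM to 8.67, 9.23 and 9.64 FPKM. GDF15, a secreted stress cytokine, fell by 1.12 (SE 0.06), from 1337, 1251 and 1430 FPKM to 670.0, 702.6 and 550.5 FPKM. Both are also members of the ATF4 list, and they are the only 2 genes the lists share. Leaving out vehicle library 3 reduced the p53 targets that passed as lower from 8 to 5. The gene SERPINB5 met the count limit only through the VIC-1911 libraries, so it could only differ.

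ATF4 targets had the lowest median of the lists examined with more than 1 tested gene. Of 40 genes, all of them tested, 38 passed as lower and none as higher, 35 were called lower, and the median log2 fold change was −1.76. PCK2, the mitochondrial enzyme that makes phosphoenolpyruvate (chromosome 14, 24094171 to 24104125), stood at 233, 248 and 255 FPKM in vehicle and 15.4, 17.9 and 16.1 FPKM in VIC-1911. Its log2 change was −3.95 (SE 0.06), with vehicle 15.4-fold above VIC-1911 (adjusted p = 7.4e-28, edgeR's quasi-likelihood test). The groups lay far apart in every library. PCK2 overlaps NRL.

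The 14 genes of amino acid synthesis had a median of −1.56, the 10 transport genes −1.88, the 13 regulators −1.89 and the 3 secreted factors −2.6. ASNS, the asparagine synthetase, fell by 2.84 on the log2 scale (SE 0.06), from 167, 191 and 191 FPKM to 25.8, 26.5 and 27.0 FPKM. SLC7A11, the cystine and glutamate exchanger, fell by 3.44, from 66.5, 74.7 and 76.3 FPKM to 7.29, 7.19 and 6.40 FPKM. SLC7A11 overlaps SLC7A11-AS1, and reads of antisense partners cannot be told apart where strand was not used. TRIB3, a pseudokinase that restrains ATF4 and AKT, fell by 2.55, and STC2, a secreted glycoprotein, by 2.6. FGF21, a hormone induced by amino acid lack, had 173 counts over the vehicle libraries and 1 over the VIC-1911 libraries, 169-fold lower with a 95% counting interval of 30.0 to 6717. It met the count limit only through vehicle.

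The 2 ATF4 targets that did not pass were ATF5 and ALDH18A1. A related group was partly lower: of 20 cytosolic tRNA synthetases, which charge tRNAs with amino acids, 12 passed as lower and 5 as higher, 7 were called lower, and the median was −0.59. GARS fell by 1.74 (SE 0.04), from 177, 181 and 172 FPKM to 53.1, 55.6 and 55.8 FPKM, SARS by 1.63, CARS by 1.45, AARS by 1.19 and MARS by 1.10 on the log2 scale. MARS overlaps DDIT3, an ATF4 target. MTOR itself did not pass (0.03, SE 0.05), at 12.6, 13.1 and 13.3 FPKM in vehicle and 13.9, 13.8 and 13.6 FPKM in VIC-1911.

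**Figure D3:**
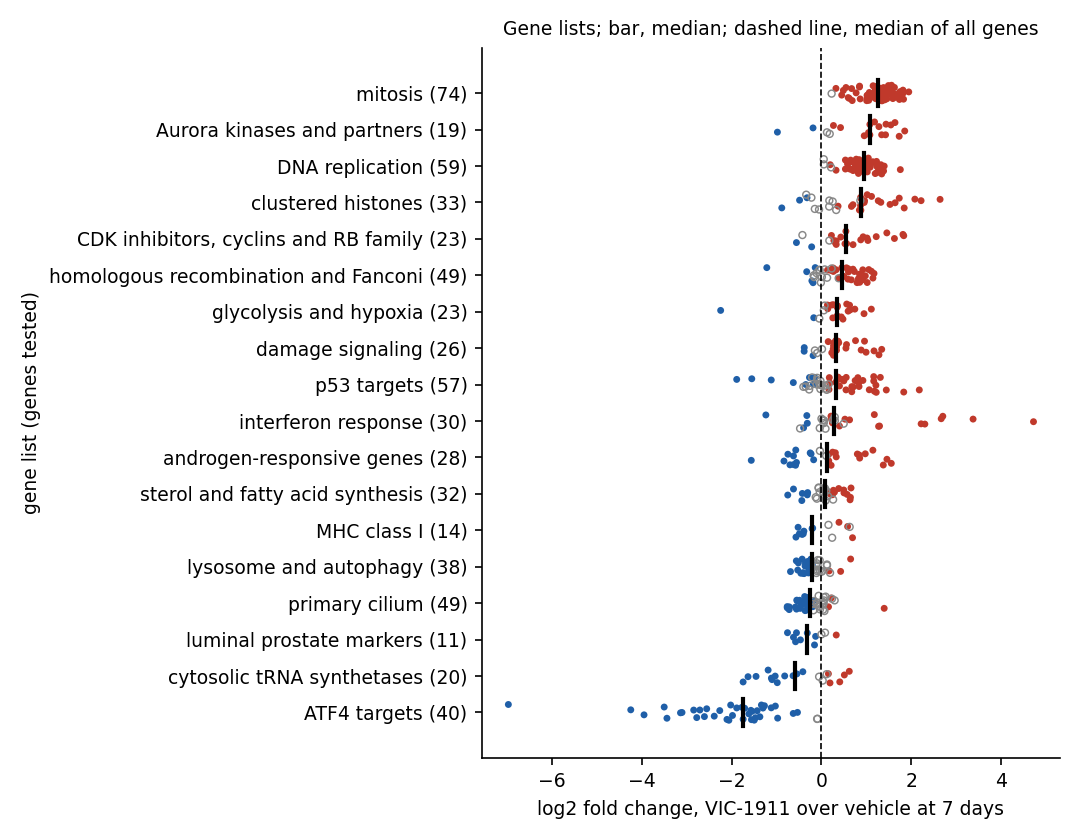
Log2 fold change of each tested gene in 18 gene lists, VIC-1911 over vehicle at 7 days, with the number of tested genes in parentheses. Filled points passed (red higher, blue lower; adjusted p under 0.05), open points did not; black bars are list medians, and the dashed line is the median of all genes, −0.02. Medians run from 1.26 for mitosis to −1.76 for ATF4 targets.

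The promoters of the moving genes were read from RefSeq (GRCh38.p14), to show the elements by which these families are known to be controlled. Each window runs from 250 bases before to 50 after 1 listed start per gene. For ASNS (97851677 to 97928441) that start lies inside the gene. The cell cycle gene homology region, TTTGAA on either strand, binds the DREAM and MuvB complexes. It was present in 45 of 65 promoters of mitotic genes (69.2%), 15.4% of all 27305 promoters and 9.20% of those of tested genes. It was in 26.8% of the promoters of genes called higher and in 8.04% of those called lower. The following 3 promoter stretches belong to CDK1, ANLN and TOP2A, and capitals mark this element:
CDK1, chr10:60778123-60778222, plus strand: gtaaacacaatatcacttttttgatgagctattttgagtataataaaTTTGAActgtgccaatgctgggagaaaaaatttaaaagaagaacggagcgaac
ANLN, chr7:36389762-36389861, plus strand: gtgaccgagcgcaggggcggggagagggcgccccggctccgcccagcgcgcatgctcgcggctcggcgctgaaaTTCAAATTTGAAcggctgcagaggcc
TOP2A, chr17:40417995-40418094, minus strand: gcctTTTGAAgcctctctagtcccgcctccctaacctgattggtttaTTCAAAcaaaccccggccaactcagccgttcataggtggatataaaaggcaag
ANLN and TOP2A each hold 2 copies, the ANLN copies side by side on opposite strands.

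E2F factors bind TTTGGCG or TTTCCCG, and these letters, on either strand, stood in 27 of 50 promoters of replication genes (54.0%), 6.11% of all promoters and 9.58% of those of tested genes. The homology region was in 2 of 50 replication promoters, and the E2F core in 12.3% of mitotic promoters. Capitals mark the E2F core in the promoters of the helicase gene MCM7 and of the sliding clamp gene PCNA:
MCM7, chr7:100101531-100101630, minus strand: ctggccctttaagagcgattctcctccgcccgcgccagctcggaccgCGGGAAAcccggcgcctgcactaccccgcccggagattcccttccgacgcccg
PCNA, chr20:5126623-5126722, minus strand: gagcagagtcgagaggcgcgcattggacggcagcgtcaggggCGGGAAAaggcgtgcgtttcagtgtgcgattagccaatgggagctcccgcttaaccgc
Both stretches carry the core on the strand opposite to the gene.

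The ATF4 element TGATGNAA, on either strand, was in 7 of 33 promoters of ATF4 targets (21.2%), 3.67% of all promoters and 1.68% of those of tested genes. It was in 28 of 311 promoters of genes called lower and in 9 of 310 of those called higher. Capitals mark it in the promoters of ASNS, of CHAC1, which breaks down glutathione, and of the stress factor ATF3:
ASNS, chr7:97872409-97872508, minus strand: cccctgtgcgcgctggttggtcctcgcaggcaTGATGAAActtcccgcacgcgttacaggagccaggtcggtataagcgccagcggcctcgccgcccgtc
CHAC1, chr15:40953221-40953320, plus strand: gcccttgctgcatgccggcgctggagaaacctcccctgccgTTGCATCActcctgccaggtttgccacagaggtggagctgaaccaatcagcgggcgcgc
ATF3, chr1:212565170-212565269, plus strand: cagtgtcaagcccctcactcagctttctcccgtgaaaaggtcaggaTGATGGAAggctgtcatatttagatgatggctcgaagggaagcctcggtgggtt
The NF-Y box CCAAT was in 67.7% of mitotic, 58.0% of replication and 51.5% of ATF4 target promoters and in 35.7% of all promoters. None of these motifs contains another of them. A match describes the letters of the window and is not a bound site.

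**Figure D4:**
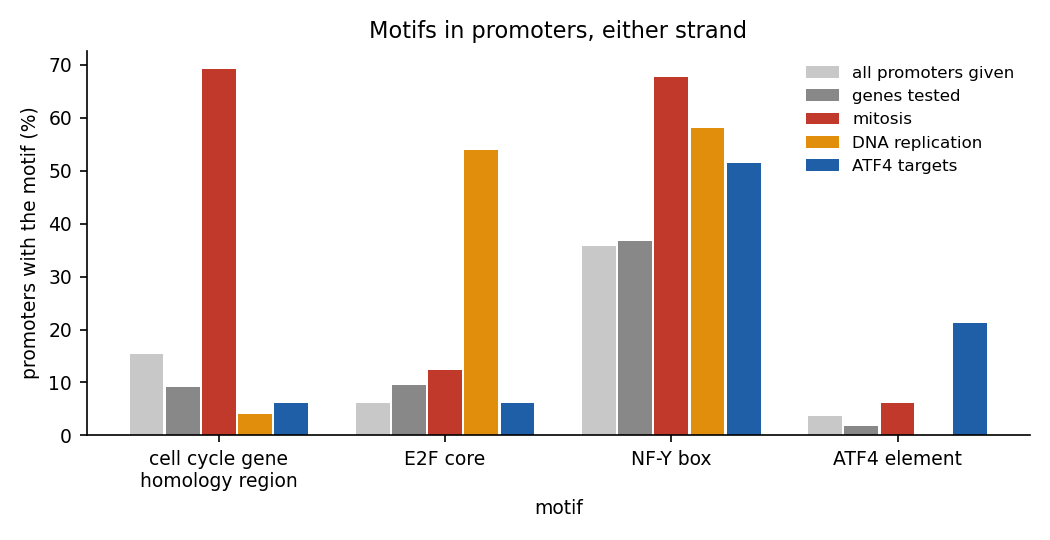
Share of promoters (%) that hold each of 4 motifs on either strand, among all 27305 promoters given, those of tested genes, and those of the mitosis, replication and ATF4 lists. The homology region is most frequent in mitotic promoters (69.2%), the E2F core in replication promoters (54.0%) and the ATF4 element in ATF4 target promoters (21.2%).

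Genes for the repair of DNA rose less than those for its replication. Of 49 genes of homologous recombination and the Fanconi pathway, 33 passed as higher and 5 as lower, 5 were called higher and 1 lower, and the median was 0.45. The shares over all genes tested were 26.7% passing as higher, 27.7% as lower, 3.04% called higher and 3.34% called lower. BRCA2, a mediator of strand exchange in recombination, rose by 1.11 (SE 0.08), from 1.32, 1.42 and 1.10 FPKM to 2.87, 2.99 and 3.0 FPKM. BRCA1 rose by 0.67. UBE2T, the conjugating enzyme of the Fanconi core, rose by 1.17. MUS81, a nuclease that resolves joint molecules, fell by 1.22 on the log2 scale (SE 0.06), from 24.6, 25.1 and 28.0 FPKM to 12.1, 11.3 and 11.2 FPKM, and overlaps EFEMP2. XRCC2 (1.15) and RAD54B (1.02), both of the recombination pathway, had changes of 0.99 without vehicle library 2. Without vehicle library 1 the genes of this list called higher were 8, and without vehicle library 2 they were 3. The genes that passed as lower were 3 without vehicle library 2 or 3 and 1 without VIC-1911 library 3.

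Of 26 genes of damage signaling, 20 passed as higher and 3 as lower, 3 were called higher (6 without vehicle library 1), and the median was 0.33. Among all genes tested, 26.7% passed as higher, 27.7% passed as lower and 3.04% were called higher. H2AFX, the gene of the histone H2AX that is phosphorylated at breaks, rose by 1.28 (SE 0.06), from 56.6, 45.8 and 45.7 FPKM to 121, 124 and 130.2 FPKM. All 3 VIC-1911 libraries lay well above vehicle. MDC1, which binds phosphorylated H2AX, rose by 1.17, and POLQ, the polymerase of microhomology end joining, by 1.34. PARP1 rose by 0.55 (SE 0.04), from 59.9, 55.9 and 55.1 FPKM to 84.4, 84.7 and 90.1 FPKM, TRIM28, a corepressor that ATM phosphorylates, rose by 0.23, and ATM fell by 0.38 on the log2 scale. ATR passed at 0.15, but did not pass without vehicle library 1 (0.12) or 2 (0.15) or without VIC-1911 library 1 (0.15) or 2 (0.14).

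Histone genes of the replication-dependent clusters were higher in a poly(A) library, where few of their transcripts are captured. Of 33 tested among 59, 21 passed as higher, 3 as lower and 11 were called higher, with a median of 0.87. HIST1H1C, a linker histone, rose by 1.84 (SE 0.08), from 58.9, 46.1 and 46.8 FPKM to 189.9, 166 and 212 FPKM. HIST1H2BJ, a core histone, rose by 2.64 (SE 0.20), from 4.67, 2.47 and 1.89 FPKM to 19.6, 18.6 and 23.6 FPKM. HIST1H2BK, HIST1H2BC and HIST1H2BF rose by 1.27, 1.53 and 1.64. Near-identical histone genes can share reads, and HIST1H2AL and HIST2H2AC met the count limit only through VIC-1911.

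Luminal genes were lower than in vehicle of 7 days, the group that lay highest in them. The 11 markers summed to 14287 to 14655 CPM there and to 10385 to 11041 CPM in VIC-1911 at 7 days. At 2 days the sums were 8355 to 8877 CPM in vehicle and 8230 to 8571 CPM in VIC-1911. Of 11 luminal markers, 8 passed as lower and 1 as higher, none was called, and the median was −0.31. Among all genes tested, 27.7% passed as lower and 26.7% as higher. KLK3 fell by 0.62 (SE 0.04), from 2668, 2697 and 2678 FPKM to 1863, 1815 and 1746 FPKM. FOLH1, which encodes the surface antigen PSMA, fell by 0.75, from 391.5, 382 and 415 FPKM to 255, 239 and 236 FPKM, and KLK2 by 0.57. The groups of these 3 genes did not overlap. Androgen-responsive genes were split, with 14 of 28 passing as higher and 12 as lower and a median of 0.13. This list pools genes that androgen induces with genes that it represses. Of 25 tested induced genes, 12 passed as higher and 11 as lower, with a median of 0.11. The 3 tested repressed genes were UGT2B11 and UGT2B15, which passed as higher, and UGT2B17, which passed as lower. UGT2B11 and UGT2B15 met the count limit only through VIC-1911 and UGT2B17 only through vehicle, so these 3 could only differ. MAF, a transcription factor, rose by 1.46 and EAF2, an elongation factor partner, by 1.38. The neuroendocrine marker SYP was at most 1.35 FPKM in any library.

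Genes of glycolysis rose and VEGFA fell. Of 23 genes of glycolysis and hypoxia, 18 passed as higher and 2 as lower (1 without vehicle library 3 or VIC-1911 library 3), with a median of 0.35. Among all genes tested, 26.7% passed as higher, 27.7% passed as lower and 3.04% were called higher. LDHA, the lactate dehydrogenase, was the only one called higher (2 were without vehicle library 1) and rose by 1.11 (SE 0.05), from 117, 102 and 109.8 FPKM to 249, 239 and 249.99 FPKM. PGAM1, another enzyme of the pathway, rose by 0.74. VEGFA, an angiogenic factor that both hypoxia and ATF4 induce, fell by 2.24 on the log2 scale (SE 0.06), from 94.2, 99.0 and 119 FPKM to 23.1, 23.4 and 21.8 FPKM. LDHA and VEGFA each had groups that did not overlap.

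Other families were examined in the same way. Over all genes tested, 26.7% passed as higher and 27.7% as lower. Of 38 lysosome and autophagy genes, 22 passed as lower and 3 as higher (5 without vehicle library 1), with none called and a median of −0.21: CD63, a membrane protein, fell by 0.56, GLB1 by 0.69 and ASAH1, the acid ceramidase, by 0.51 on the log2 scale. Of 49 genes of the primary cilium, which AURKA helps to disassemble, 27 passed as lower and 3 as higher, with a median of −0.25. IFT140 and TCTN1 fell by 0.72 and 0.76 on the log2 scale, and KIF7, a regulator of Hedgehog signaling that overlaps the cell cycle gene TICRR, rose by 1.40. Of 32 genes of sterol and fatty acid synthesis, 12 passed as higher and 6 as lower, with none called and a median of 0.09: SREBF2, the sterol regulator, fell by 0.75, SC5D fell by 0.62, and FASN, the fatty acid synthase, rose by 0.65. Among 29 tested keratins, integrins and laminins, 12 passed as lower and 5 as higher (3 without vehicle library 2 or VIC-1911 library 1), with 3 called lower, 2 called higher and a median of −0.04. The laminin gene LAMB2 and the integrin genes ITGA6 and ITGA5 fell by 1.11, 1.05 and 1.32 on the log2 scale. Those called higher were another laminin gene, LAMA1 (1.92, SE 0.36), and another integrin gene, ITGA1 (1.26, SE 0.45), both at most 0.30 FPKM in any library. In vehicle libraries 1, 2 and 3 LAMA1 had 10, 8 and 5 counts and ITGA1 had 10, 6 and 4. Both thus needed the VIC-1911 libraries, where they are higher, to meet the count limit. ITGA1 had overlapping groups and lost its call without vehicle library 2 (0.94), VIC-1911 library 1 (1.16) or VIC-1911 library 2 (0.91).

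Survival, immune and growth signaling genes were mixed. The shares over all genes tested were 26.7% passing as higher, 27.7% as lower, 3.04% called higher and 3.34% called lower. Of 24 BCL2 family and caspase genes, 8 passed as higher and 3 as lower. BAK1, a partner of BAX, rose by 0.53. Of 30 interferon response genes, 15 passed as higher and 4 as lower, and 9 were called higher, but 6 of these 9 met the count limit only through the VIC-1911 libraries. IFIT1, an RNA-binding effector, is 1 of these 6 and so could only differ. It had 7 counts over the vehicle libraries and 77 over VIC-1911, 11.3-fold higher with a counting interval of 5.21 to 28.9. Leaving out a VIC-1911 library left 5 to 7 passing as higher and 2 or 3 called, since fewer of these genes then met the limit. OAS3, which met it in both groups, rose by 1.27 (SE 0.10), from 1.64, 1.33 and 1.21 FPKM to 3.43, 3.6 and 3.64 FPKM, while ISG20 fell by 1.24 on the log2 scale. Of 14 genes of MHC class I presentation, 3 passed as higher and 8 as lower. HLA-B fell by 0.52 on the log2 scale, and B2M, its light chain, rose by 0.39.

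Of 14 tested genes of NF-kB and cytokines, 5 passed as higher and 1 as lower (none without VIC-1911 library 3). NFKB2, a subunit, rose by 0.61 and LIF, a cytokine, by 1.31. Of 13 Hippo genes, 5 passed as higher and 3 as lower. With 26.7% of all genes tested passing as higher and 27.7% as lower, counts in lists this small say little about a list. TEAD4 and TEAD2, its DNA-binding factors, rose by 0.41 and 0.56.

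Neurotrophin signaling and ERK feedback genes were examined because they are linked to the study of this drug. NTRK2 and NTRK3 were at most 0.015 FPKM in any library and below the count limit, as were NGFR and the ligands BDNF, NTF3 and NTF4. SORT1, a neurotrophin coreceptor, passed with a log2 change of −0.40. Of 11 tested ERK feedback genes, 4 passed as higher and 2 as lower, beside 26.7% and 27.7% of all genes tested. MYC rose by 0.35 (SE 0.05), CCND1 by 0.32 and PHLDA1 by 0.83, and the Sprouty-related gene SPRED3, at most 1.15 FPKM in any library, fell by 1.12 on the log2 scale, or by 0.85 without vehicle library 2. SPRY1 passed at 0.30 with overlapping groups but did not pass without vehicle library 2 (0.21) or 3 (0.25) or VIC-1911 library 2 (0.27) or 3 (0.26). SPRED2 passed at −0.25 but did not pass without vehicle library 2 (−0.20) or VIC-1911 library 3 (−0.21). DUSP4 (0.16) did not pass but did without vehicle library 2 (0.22) or VIC-1911 library 1 (0.20) or 3 (0.23). SPRY2, SPRED1, IER3 and EPHA2 did not pass and had overlapping groups, and DUSP5, DUSP6, SPRY4, ETV4, ETV5, EGR1, FOS and FOSL1 were below the count limit. The kinase gene AKT1 rose by 0.31. MAPK3 passed at −0.18 but did not pass without vehicle library 1 (−0.15) or VIC-1911 library 1 or 3 (both −0.16).

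The genes with the largest changes included several of no list. Of the called genes that reached a mean of 1 FPKM in a group and had no overlap, the 12 highest log2 fold changes lay between 2.06 (FAM198B) and 4.03 (DHRS2). DHRS2, MOGAT2 and HIST1H2AL met the count limit only through VIC-1911, so these 3 could only differ. Others also needed their VIC-1911 libraries to meet it. Counts in vehicle libraries 1, 2 and 3 were 10, 8 and 5 for LOC101929705 and 27, 8 and 6 for ADAM7. They were 13, 2 and 2 for ODAM, 16, 6 and 0 for TTR, and 8, 12 and 0 for HIST1H1B. ZNF812 and HIST1H2BJ had 5 and 8 counts in vehicle library 3. DHRS2, a short-chain dehydrogenase, stood at 0.03, 0.05 and 0.20 FPKM in vehicle and 1.17, 1.03 and 1.54 FPKM in VIC-1911. Its 6 vehicle counts against 105 gave a 17.9-fold higher level with a counting interval of 7.96 to 49.9. FAM198B rose from 1.79, 1.48 and 1.42 FPKM to 6.53, 7.30 and 6.70 FPKM. NPR3, a clearance receptor of natriuretic peptides, rose by 2.25 (SE 0.13), and ZNF812, annotated as a transcribed pseudogene (ZNF812P), by 2.90 (SE 0.24). LOC101929705, MOGAT2, ADAM7, ODAM, HIST1H2AL, TTR and HIST1H1B made up the rest beside HIST1H2BJ, each at most 3.58 FPKM in any library.

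Of the 12 lowest log2 fold changes, 9 belonged to genes that met the count limit only through vehicle and so could only differ. S100P, LAMP3 and BEST1 were the other 3. LAMP3 had 10, 3 and 7 counts in VIC-1911 libraries 1, 2 and 3, so it too needed vehicle to meet the limit. S100P, a calcium-binding protein (chromosome 4, 6693878 to 6697170), stood at 153, 171 and 178 FPKM in vehicle and 4.34, 4.03 and 4.32 FPKM in VIC-1911. The log2 change was −5.35 (SE 0.10), with vehicle 40.7-fold above VIC-1911, and the next highest level of these genes in any library was the 23.1 FPKM of PRSS1. The trypsinogen genes PRSS1, PRSS2 and PRSS3 were all lower. PRSS1 stood at 15.4, 17.6 and 23.1 FPKM in vehicle and 0.14, 0.30 and 0.09 FPKM in VIC-1911. PRSS2 had 101 counts over the vehicle libraries and 0 over VIC-1911. That is 32.9-fold lower with a floor of 3 counts over the group, and the lower 95% counting limit was 26.3-fold. The trypsinogen genes are near-identical copies, so their separate values are uncertain. KLHDC7B, a kelch gene, had 299 counts against 1, 292-fold lower with an interval of 52.1 to 11582. LAMP3, a lysosomal protein, fell by 5.09 on the log2 scale, and BEST1, which overlaps the ferritin gene FTH1, by 4.85. DMGDH, an enzyme of choline breakdown, and MOV10L1, a helicase of the germ line, both fell by 4.66. VLDLR-AS1, antisense to VLDLR, and LINC01133 had 3 and 8 counts over the VIC-1911 libraries. Intervals and floors cover counting error only.

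The drug effect at 7 days differed from that at 2 days. The 2-day libraries, 3 of vehicle and 3 of VIC-1911 at the same dose, were set beside the 7-day ones, each against the vehicle of its own time. They held between 3245273 and 7184420 counts, against 6911220 to 17538796 in vehicle and 10009912 to 15935359 in VIC-1911 at 7 days. Of 13830 genes, 2016 (14.6%) had a higher and 1957 (14.2%) a lower effect at 7 days, 28.7% in all, by an interaction test with edgeR. With scaling by library size alone the split was 2464 against 1570. Of 74 mitotic genes, 73 had a higher effect at 7 days, with a median log2 change of 1.26 at 7 days and −0.23 at 2 days, and of 59 replication genes 58 did, with medians of 0.94 and −0.26. AURKA changed by 0.25 at 2 days and 1.86 at 7 days, a difference of 1.61 (SE 0.12), and CDK1 by −0.25 and 1.82.

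Of 40 ATF4 targets, 38 had a lower effect at 7 days, with medians of −1.76 at 7 days and −0.46 at 2 days, and PCK2 changed by −1.08 at 2 days. The p53 targets were alike in their medians, 0.32 at 7 days and 0.34 at 2 days, with 11 effects higher and 10 lower. CDKN1A changed by 1.24 at 2 days and 1.83 at 7 days, a difference of 0.60 (SE 0.07), and for MDM2 the difference was 0.06 (SE 0.07) and did not pass.

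The vehicle libraries of the 2 times stood apart in the same genes. Mitotic genes summed to between 7280 and 7346 CPM in vehicle at 2 days and between 2373 and 2883 CPM in vehicle at 7 days, against 6517 to 6541 and 5740 to 5895 CPM in VIC-1911 at these times. VIC-1911 libraries at 7 days were thus below both groups of 2 days in mitotic genes, and the lowest group was vehicle at 7 days. Replication genes summed to between 4806 and 4897 CPM in vehicle at 2 days, 1990 and 2222 CPM in vehicle at 7 days, and 3874 and 3976 CPM in VIC-1911 at 7 days. ATF4 targets summed to between 10318 and 10662 CPM in vehicle at 2 days and between 17911 and 19015 CPM in vehicle at 7 days, against 5781 to 6053 CPM in VIC-1911 at 7 days. The 2 times were deposited as separate tables of separate library numbers, so the day and the library series cannot be told apart, and no test was made between vehicle groups.

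**Figure D5:**
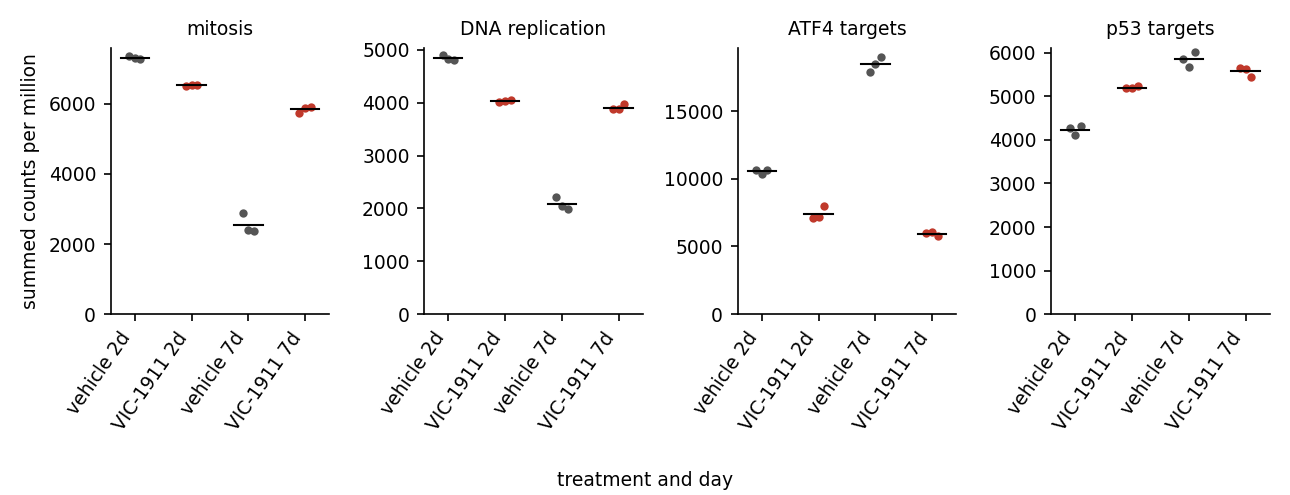
Summed CPM of 4 gene lists in the 12 libraries of vehicle (grey) and VIC-1911 (red) at 2 and 7 days; points are libraries and bars group means. In mitotic genes vehicle at 7 days lies lowest, between 2373 and 2883 CPM, and in ATF4 targets highest, between 17911 and 19015 CPM.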

How the data were processed

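Polyadenylated RNA of C4-2B cells was measured in 6 libraries of 7 days and, for the interaction with time, 6 of 2 days. Trimmomatic was used by the authors for trimming, and STAR, at version 2.6.0 in the submitters' processing notes, for alignment to GRCh38 and counting, and the counts per gene were deposited without normalization. The deposited FPKM values, which the authors made with an in-house script, equal the 7-day counts divided by a length per gene and a constant per library for all 10637 genes compared (tolerance 1e-04), and 32 genes had none. The strand setting and the treatment of shared reads are not given in the sources used here. Gene names turned into dates (28) stayed in the library sizes and are not named.

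Quasi-likelihood models (glmQLFit, glmQLFTest, TMM factors, no block) were fitted with edgeR 4.0.16 under R 4.3.3 to the genes that reached 10 counts in 3 or more libraries. In each library the top 10 genes took 4.39% to 4.78% of the counts, and replicates differed by more than sampling noise (chi-square per degree of freedom at least 1.78). Alternatives were upper-quartile scaling, library size alone, no filter, a mean of at least 1 FPKM, DESeq2 1.42.0, glmTreat, limma 3.58.1 on log2(FPKM + 0.1) and log2(FPKM + 1), a fit of all 12 libraries of 7 days, the replicate block and each library left out. The code was tested on simulated data. Members and lists were chosen with earlier results of these data known. Genes named are the 12 with the largest change in each direction of called genes that reached a mean of 1 FPKM in a group and had no overlap, up to 5 called genes of each list (filled to 3 with passing genes), genes of the study, all Aurora partners, CDK inhibitors, neurotrophin and ERK feedback genes, and 3 with the largest time difference each way. Genes that did not pass, genes that met the count limit in 1 group only, RBL2, and MCM7, PCNA, CHAC1 and ATF3, shown for their promoters, were chosen after their values were seen. Positions are those of RefSeq, GRCh38.p14, and of 173 named genes with a position 43 overlap another gene. Counting intervals are 95% exact intervals of the ratio of pooled counts. Some genes of these lists are not reported here.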

Additional observations from a re-analysis of the deposited data

Results flagged for a closer look

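The effect of VIC-1911 differed between 7 and 2 days by an interaction test with edgeR. It was higher at 7 days for 2016 genes and lower for 1957 of 13830. Among the lists, it was higher for 73 of 74 mitotic and 58 of 59 replication genes, and lower for 38 of 40 ATF4 targets and 9 of 11 luminal prostate markers. The summed levels of these 4 lists in the vehicle libraries of 2 and of 7 days also did not overlap, with luminal markers between 8355 and 8877 CPM at 2 days and between 14287 and 14655 CPM at 7 days, and the part of the day and of the library series in these differences was not tested.

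Among single genes that reached 1 FPKM on average in a group at 7 days, the difference of log2 fold changes was 3.08 for DHRS2 (0.92 at 2 days), 3.04 for ODAM (−0.76 at 2 days) and 2.71 for MOGAT2 (−0.27 at 2 days). It was −7.95 for KLHDC7B (0.35 at 2 days), −5.44 for PRSS1 (−1.25 at 2 days) and −4.66 for LAMP3 (−0.42 at 2 days). None of these 6 genes passed at 2 days, and all are at low counts in a group, so the fitted values depend on the prior count. The SE of the KLHDC7B difference was 1.66. The lower depth of the 2-day libraries also gave such genes less chance to pass at 2 days.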

How the results depend on the processing

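The counts of called genes moved by more than 1.5 times under 2 alternatives. A test against the 2-fold limit itself (glmTreat) called 148 genes higher and 188 lower, and limma on log2(FPKM + 1), which shrinks the changes of low genes, called 173 and 154, against 419 and 461. Leaving out 1 library gave 344 to 467 called higher, 390 to 500 called lower, 3178 to 3710 passing as higher and 3269 to 3602 as lower, and for the time difference 1719 to 2414 higher and 1604 to 1878 lower. In all 6 such fits 258 genes called higher and 282 called lower kept their call, and none of the 880 called genes changed sign under any alternative run. Same-numbered libraries of vehicle and VIC-1911 correlated at 0.02, 0.15 and −0.01 in their deviations from the group means. The pair numbered 2 had the highest value of all pairs, while VIC-1911 library 3 correlated best with vehicle library 1 (0.12). Pairing by number was thus not shown, and 3 libraries per group are too few to exclude it. With the replicate block 415 genes were called higher and 455 lower, 3710 and 3847 passed, and the time difference was 2033 higher and 2006 lower. Of 160 named genes fitted, 4 changed sign in a fit with a library left out, none past the threshold: log2 changes ran from −0.066 to 0.44 for AURKC, from −0.32 to 0.025 for SPRY2, from −0.061 to 0.15 for EPHA2 and from −0.036 to 0.72 for CDKN2B. The depth limits what can be said of the interferon genes with few counts.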
